A study of Mus musculus with 4 samples.

Results

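The 35 mitosis genes described here were taken by symbol from a list of genes that act between the onset of mitosis and the separation of the daughter cells, out of 32285 genes counted. They were followed in CD8+ PD-1+ CD44+ T cells sorted from the tumor-draining lymph nodes (TdLN) of female C57BL/6 mice, bought at 6 weeks of age and older when sorted, that bore B16F10GP melanomas on both flanks. B16F10GP is the B16F10 melanoma line carrying the LCMV glycoprotein. One library held the cells of each treatment. These were RT + αPD-L1 (radiation of 1 of the tumors together with antibody against PD-L1), αPD-L1 alone, RT alone, and Control (mice with the same tumors and no treatment), with the treated mice sampled 7 days after treatment. Each library pooled 5 mice marked by hashtag antibodies, so the 20 mice are the replicates, and treatment and library cannot be told apart. All 35 symbols were found, and all 35 passed the filter on low counts.

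A dividing T cell copies its DNA in S phase and then builds a spindle, attaches each chromosome to it and splits. CDK1 with a B-type cyclin starts this program, the spindle checkpoint holds it until every kinetochore is attached, and the anaphase-promoting complex (APC/C) ends it by marking cyclin B for destruction. Most of these genes are transcribed only late in the cell cycle, which makes their mRNAs the usual marks of dividing cells. In T cells, division follows antigen and costimulation, and it is the source of the clonal expansion that precedes effector function.

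The files held 47820 barcodes, of which 43971 met the bounds on genes, UMIs and mitochondrial share and 39196 of these carried 1 hashtag. After 1555 cells were set aside, 9537 cells of RT + αPD-L1, 10532 of αPD-L1, 8746 of RT and 8826 of Control were compared. Those set aside were the γδ T-like and dendritic-like state clusters described below, and a B-like cluster of another clustering that kept the cell cycle genes. In that other clustering, cluster 9 (Klra7, Klra6) with 1727 cells was also named γδ T-like and was not set aside as such. Summed counts per mouse ran from 1135955 UMIs (131 cells, RT mouse 4) to 37711411 UMIs (4617 cells, RT + αPD-L1 mouse 3). Among the barcodes of the files before any filter, 1153 distinct sequences occurred in more than 1 library. The largest state cluster was naive-like (Igfbp4, Ccr9), with 7135 cells. Of these, 1148 came from RT + αPD-L1, 2669 from αPD-L1, 1945 from RT and 1373 from Control. The part of these unequal numbers in the values summed over all cells was not tested. The study also sorted CD44- CD62L+ naive cells of untreated mice as a control and does not say which pool held them.

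Promoters were looked at first, because the members are known to share regulatory letters. The CCAAT box binds NF-Y, and the letters TTTGAA or TTCGAA form the cell cycle genes homology region (CHR), which binds the MuvB complexes that silence these genes in resting cells and activate them late in the cycle. RefSeq windows (GRCm38.p6) of 300 bases, 250 before and 50 after the start, were found for 31 of the 35 members, and not for Aurkb, Cdc25c, Kif20a and Tpx2. CCAAT stood on either strand of 25 of these 31 windows (80.65%), against 37.92% of 27025 windows of all genes. At least 2 CCAAT stood in 20 of 31 (64.52%), against 12.16% of all windows. TTTGAA or TTCGAA stood in 24 of 31 (77.42%), against 19.44%, and both kinds of letters in 21 of 31 (67.74%), against 7.704%. Overlapping matches were each counted. Knstrn, Nusap1 and Birc5 held neither in these windows. A match is a description of letters, not of a binding site.

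The 8 promoters below belong to the 8 members followed mouse by mouse, and are shown from 150 bases before to 30 bases after the start, 5′ to 3′ on the strand of the gene. Capitals mark the letters searched, on either strand, so that a CCAAT of the other strand reads ATTGG and a TTTGAA of the other strand reads TTCAAA.
Top2a, chr11:99024160-99024339, minus strand: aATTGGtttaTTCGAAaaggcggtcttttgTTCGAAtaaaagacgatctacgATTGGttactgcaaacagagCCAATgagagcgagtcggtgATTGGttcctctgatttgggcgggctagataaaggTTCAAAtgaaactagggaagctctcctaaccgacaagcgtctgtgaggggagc
Mki67, chr7:135716350-135716529, minus strand: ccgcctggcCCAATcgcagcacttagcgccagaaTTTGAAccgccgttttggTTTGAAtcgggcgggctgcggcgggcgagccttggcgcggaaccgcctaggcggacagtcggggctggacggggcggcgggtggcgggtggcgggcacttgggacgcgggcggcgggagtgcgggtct
Cks2, chr13:51645082-51645261, plus strand: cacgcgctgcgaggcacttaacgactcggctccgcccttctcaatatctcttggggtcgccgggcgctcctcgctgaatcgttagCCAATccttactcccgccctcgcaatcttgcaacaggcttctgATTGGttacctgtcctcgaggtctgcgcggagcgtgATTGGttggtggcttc
Cenpa, chr5:30666736-30666915, plus strand: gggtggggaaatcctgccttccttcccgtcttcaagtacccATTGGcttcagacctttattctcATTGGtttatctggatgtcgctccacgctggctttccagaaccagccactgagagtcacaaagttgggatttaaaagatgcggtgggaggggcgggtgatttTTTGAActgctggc
Cdc20, chr4:118437314-118437493, minus strand: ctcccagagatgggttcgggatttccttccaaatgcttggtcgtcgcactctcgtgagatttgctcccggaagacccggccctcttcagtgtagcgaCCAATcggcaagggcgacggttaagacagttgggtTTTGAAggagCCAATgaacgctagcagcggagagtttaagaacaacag
Aspm, chr1:139454623-139454802, plus strand: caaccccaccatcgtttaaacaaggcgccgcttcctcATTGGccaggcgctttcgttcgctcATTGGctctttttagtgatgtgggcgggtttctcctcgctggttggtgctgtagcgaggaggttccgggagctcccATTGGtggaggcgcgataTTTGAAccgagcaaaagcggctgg
Anln, chr9:22389177-22389356, minus strand: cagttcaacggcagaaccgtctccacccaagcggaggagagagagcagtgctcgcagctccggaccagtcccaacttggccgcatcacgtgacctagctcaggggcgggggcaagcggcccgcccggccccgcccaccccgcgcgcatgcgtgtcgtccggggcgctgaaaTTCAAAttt
Kif2c, chr4:117178743-117178922, minus strand: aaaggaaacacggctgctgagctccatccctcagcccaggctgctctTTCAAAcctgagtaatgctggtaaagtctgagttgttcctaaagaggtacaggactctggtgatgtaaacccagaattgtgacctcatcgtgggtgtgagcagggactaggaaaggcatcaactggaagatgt
In the full window Top2a held 6 CCAAT, as did Ube2c, and 4 CHR matches, the most of the 31. Cks2 held 4 CCAAT and no CHR match, while Anln and Kif2c held no CCAAT and 2 and 1 CHR matches. The 180 bases shown do not reach every match of the full window.

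Levels are given as CPM, the UMIs of a gene as a part of all UMIs summed for a mouse, scaled to the usual total. A UMI counts 1 captured molecule, so no length enters, and how well each mRNA was captured is not known. Over the 20 mice the highest member levels were those of Top2a (topoisomerase II, which untangles the sister chromatids) at 150.5 CPM and Mki67 (Ki-67, which coats mitotic chromosomes) at 135.9 CPM. Among the genes of mitotic entry, Cks2, the small subunit that docks on cyclin-CDK, averaged 131.7 CPM and Ccnb2 (cyclin B2) 73.4 CPM. The others of this kind were lower, with Cdca3, a promoter of mitotic entry, at 58.8, Cdk1 at 34.8, Ccnb1 (cyclin B1) at 26.9, the kinase Plk1 at 26.6, the phosphatase Cdkn3 at 18.6, the kinase Aurka at 12.7 and Cdc25c, the phosphatase that activates CDK1, at 4.91 CPM, the lowest level of the 35.

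At the centromere, Cenpa, the histone H3 variant that marks it, averaged 126.4 CPM. Birc5 (survivin), Cdca8 (borealin) and the kinase Aurkb, which work together in the chromosomal passenger complex, averaged 124.0, 59.6 and 32.6 CPM. The kinetochore proteins Cenpf and Cenpe (a motor) stood at 44.3 and 34.2 CPM, and Knstrn, a spindle and kinetochore adaptor, at 30.8 CPM. The checkpoint kinases and their partners were among the low members, with Bub1b (BubR1) at 24.7, Bub1 at 14.3, the centrosomal kinase Nek2 at 11.4 and Ttk (Mps1) at 5.24 CPM. The APC/C members were unequal, the conjugating enzyme Ube2c at 124.3 CPM and the activator Cdc20 at 42.03 CPM.

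Among spindle genes, Tpx2, which activates Aurora A on the spindle, averaged 52.1, the motor Kif11 (Eg5), which pushes the poles apart, 49.1, the microtubule-binding proteins Nusap1 and Hmmr 38.8 and 26.2, Aspm 21.3 and the microtubule depolymerase Kif2c 9.41 CPM. Genes of cytokinesis were led by Kif23, a motor of the central spindle, at 42.1 CPM. Below it stood Kif20a at 18.8, Cep55, which acts in abscission, at 18.0, Ect2, which activates RhoA at the cleavage furrow, at 15.5 and the ring scaffold Anln (anillin) at 7.73 CPM. Neighbours in this order can lie within the spread over mice, as Cenpa at 137.0 ± 8.28 CPM and Ube2c at 139.3 ± 11.2 CPM did in Control (SD, n = 5).

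To compare cells of unequal depth, each cell was thinned to 2000 UMIs, which left 35645 cells and dropped 549 of RT + αPD-L1, 593 of αPD-L1, 436 of RT and 418 of Control. No member was seen in 50.63% of cells and 1 member in 27.75%, while a tail of cells held many at once. At least 5 members were detected in 3408 cells (9.561%), with 491 cells holding 4 and 360 holding 5, so the threshold cuts through a range and does not bound a cell type. These 3408 cells had a median of 15425 UMIs before thinning, against 6455 UMIs in the cells with fewer members. They held 79.37% of the member UMIs and 17.67% of all UMIs.

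Which cells these were was read from 101 other cell cycle genes (replication, mitosis, condensation, cytokinesis), none of them a member. Cells with UMIs of at least 10 of the 101 made up 12.78% of cells, with 375 cells at 9 genes and 322 at 10. Of the cells with at least 5 members, 88.12% had at least 10 of the other cell cycle genes. In the other direction, 65.93% of the cells with at least 10 cell cycle genes had at least 5 members. Cd8b1 was found in 98.42% and Cd3e in 98.62% of the cells with at least 5 members, and Cd4 in 0.9096% of them. Of the genes of the other sort markers, Pdcd1 was found in 26.67% of them and 13.07% of the rest, and Cd44 in 58.27% and 29.6%. These shares are at full depth, which differed between the cells compared. In RT + αPD-L1, RT and Control, the summed markers of dendritic, B, γδ T and CD4 T cells had ranges over mice that overlapped those of cells with fewer members, and NK markers overlapped or were lower. In αPD-L1 the 10 dendritic markers summed to 160.5 to 539.6 CPM over mice in cells with at least 5 members, against 155.8 to 207.2 CPM in the rest, and their part in the results was not tested.

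Member by member, at 2000 UMIs the share of cells with a UMI ran from 0.5723% (Cdc25c) to 14.29% (Cks2), and at full depth (median 6784 UMIs) from 3.156% to 34.25%. In the naive-like cluster (median 5011 UMIs), where 0.473% of cells had at least 10 of the other cell cycle genes, the thinned shares ran from 0.07166% (Ttk) to 6.808% (Cks2). How much of this was free RNA and how much the mRNA of these cells was not tested. The naive-like level was 21.9 CPM for Kif23, whose mean over mice was 42.1 CPM, and 7.62 CPM for Birc5, whose mean was 124.0 CPM, so the members did not stand in 1 ratio to their overall levels. In cells with at least 10 cell cycle genes they ran from 3.688% to 54.69%. Cells with at least 10 cell cycle genes held 82.26% of all member UMIs.

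Nusap1 was the member with the widest gap between cells with at least 10 cell cycle genes and the others, at 158.9 CPM against 3.653 CPM (43.5-fold). Cdk1 followed at 147.9 CPM against 3.911 CPM (37.8-fold). At the other end stood Knstrn at 83.9 CPM against 15.9 CPM (5.28-fold), Cenpa at 369.8 CPM against 63.4 CPM (5.83-fold), Cks2 at 383.9 CPM against 62.1 CPM (6.19-fold) and Kif23 at 120.2 CPM against 18.6 CPM (6.46-fold). Of these 4, Kif23 was detected in 3.747% of the cells with fewer than 10 cell cycle genes, below the 4.644% of naive-like cells. Cks2 was detected in 9.788% of these cells against 6.808% of naive-like cells, Cenpa in 8.961% against 6.091% and Knstrn in 2.39% against 1.433%. No test is given for these folds, since cell cycle genes chose the cells.

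**Figure D1:**
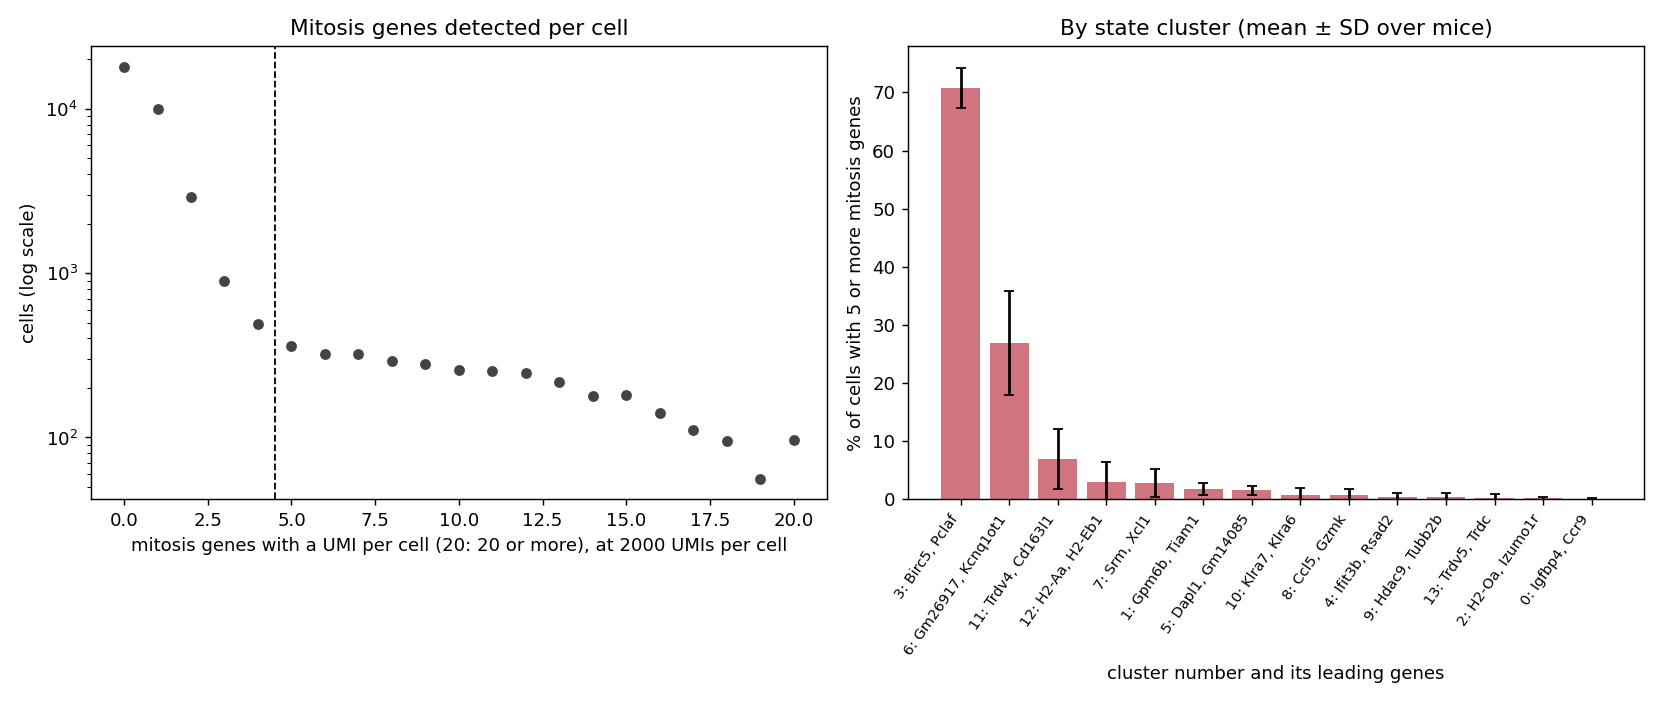
Left, number of cells (log scale) by the number of mitosis genes with a UMI after thinning to 2000 UMIs per cell, with 20 standing for 20 or more and the dashed line before 5. Right, percent of cells with 5 or more mitosis genes in each state cluster, bars as means and lines as SD over mice with at least 20 cells of the cluster; cluster 3 (Birc5, Pclaf) stands at 70.8%, and all clusters but 3, 6 and 11 lie below 4%.

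State clusters were made without the members, the other cell cycle genes and the histones (203 genes left out). Genes of G1 cyclins, E2F and cell cycle inhibitors, and any gene on no list, stayed in, so the clusters were not free of the cell cycle. Of the cells with at least 5 members, 83.71% fell in 1 cluster, cluster 3, whose leading genes were Birc5 and Pclaf. In it, 2853 of 4002 thinned cells (71.29%) had at least 5 members, and over 19 mice the share was 70.8 ± 3.47% (SD) with a range of 59.3% to 75.3%. This cluster also had the highest median depth, 16180 UMIs. Its share was 70.7 ± 2.14% in RT + αPD-L1, 69.1 ± 5.91% in αPD-L1, 72.3 ± 2.38% in RT (4 mice) and 71.3 ± 2.13% in Control, differences smaller than the spread between mice.

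Outside it, the share was lower in every cluster. Cluster 6 (Gm26917, Kcnq1ot1), with a median of only 1710 UMIs and 867 of its 2483 cells deep enough to be thinned, had 28.6%. The members summed to 2695 CPM in all cells of cluster 6, against 6450 CPM in cluster 3. Some members were still higher in cluster 6, with Mki67 at 841.3 against 506.0 CPM, Aspm at 140.9 against 80.84 CPM and Anln at 42.28 against 29.42 CPM. The γδ T-like cluster 11 (Trdv4, Cd163l1), which was left out of the comparisons, had 6.762% of 562 cells. Cluster 7 (Srm, Xcl1, Tnfrsf9), which carries genes of recent activation, had 2.876%, although 15.82% of its cells had at least 10 other cell cycle genes. The chronically stimulated-like cluster 1 (Gpm6b, Nrgn, Tnfrsf4) had 1.744% and cluster 5 (Dapl1) 1.753%. The interferon-high cluster 4 (Ifit3b, Rsad2), which came mostly from RT + αPD-L1, had 1.452% of pooled cells, with 50 such cells among 3032 of RT + αPD-L1, and 0.4483 ± 0.6495% as a mean over 12 mice. The granzyme-high cluster 8 (Ccl5, Gzmk) had 0.7403% (0.6899 ± 1.117% over 17 mice) and the naive-like cluster 0.043% (3 of 6977 cells).

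Cycling cells were also divided by the replication-dependent histones, whose mRNAs are made in S phase and destroyed when it ends. Cells with at least 10 cell cycle genes were divided at their median of 5 histone UMIs into 2240 histone-low cells (15080 UMIs at the median) and 2315 histone-high cells (16863 UMIs). The histone mRNAs summed to 880.8 CPM in histone-low and 7460 CPM in histone-high cells, and the S phase genes to 4659 and 6523 CPM. The other mitosis lists were lower in histone-low cells too, kinetochore and checkpoint genes at 1769 against 3244 CPM and cytokinesis genes at 451.7 against 889.9 CPM, so the division does not set S phase against mitosis. Of the 35 members, 29 were lower in histone-low cells, 22 of them in each of the 19 mice with enough cells. The difference was widest for Nusap1, with a log2 ratio of −1.89 ± 0.451 (SD over 19 mice), Top2a at −1.78 ± 0.225, Aurkb at −1.76 ± 0.305 and Kif11 at −1.69 ± 0.41.

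A further 6 members were on average higher in histone-low cells. Cenpa stood at 418.1 CPM in histone-low and 327.5 CPM in histone-high cells, with a log2 ratio of 0.20 ± 0.362 and a higher level in 16 of 19 mice. Cdkn3 was higher in 15 mice (0.17 ± 0.419), Cdc20 in 14 (0.11 ± 0.393) and Knstrn, Nek2 and Ccnb2 in 12 each. In none of the 6 was the mean ratio beyond the SD over mice. Ccnb1, the other B-type cyclin among the members, had a log2 ratio of −0.25 ± 0.345. At a cut of 5 cell cycle genes, where the median was 1 histone UMI, all 35 members were lower in histone-low cells, Cenpa least (−0.64 ± 0.362) and in each of 19 mice.

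**Figure D2:**
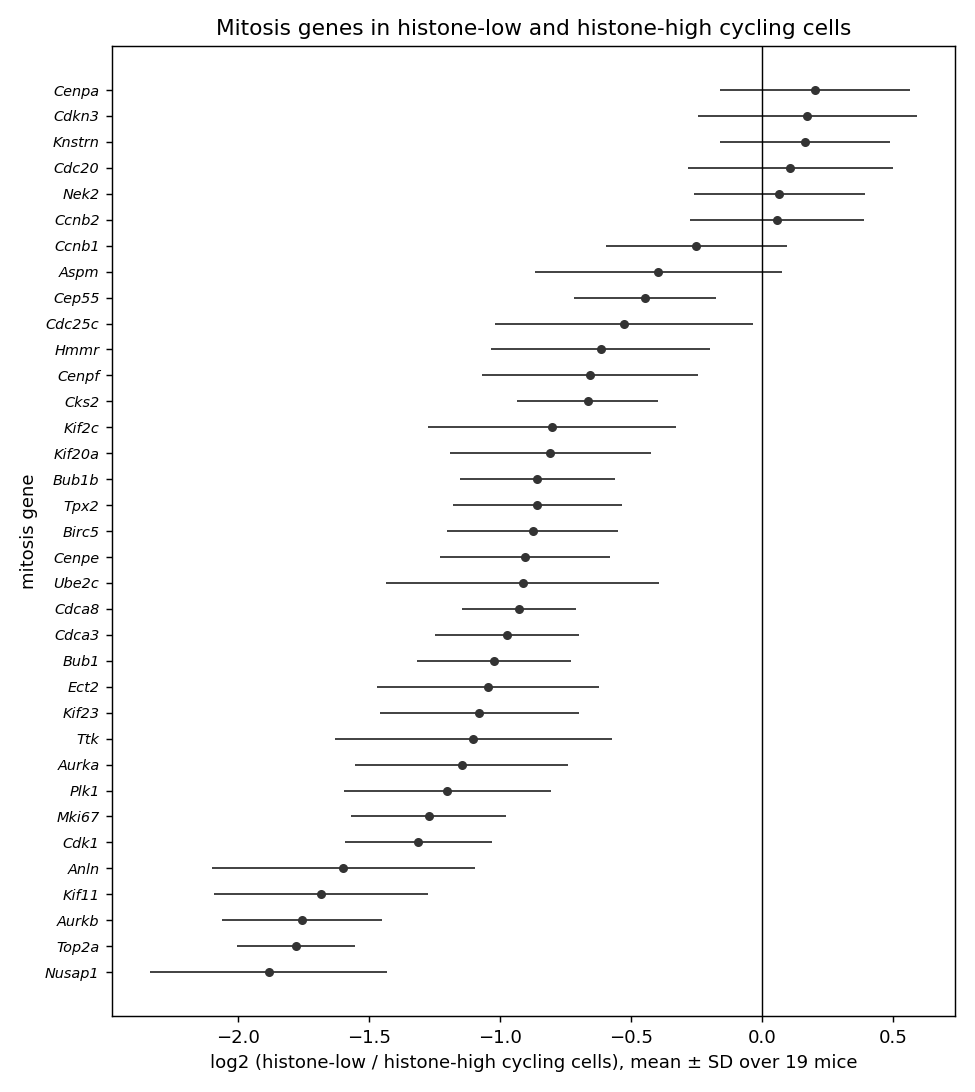
Log2 ratio of the CPM of each mitosis gene in histone-low over histone-high cells, among cells with at least 10 other cell cycle genes. Points are means and lines SD over 19 mice, with 6 genes right of 0 (Cenpa highest at 0.20) and Nusap1 lowest at −1.89.

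The share of cells with at least 5 members did not separate the treatments. It was 8.558 ± 1.393% in RT + αPD-L1, 8.83 ± 3.402% in αPD-L1, 8.016 ± 1.484% in RT and 9.527 ± 0.8466% in Control (mean ± SD, n = 5 mice each). By mouse the share was 8.798, 7.428, 10.88, 7.761 and 7.923% in RT + αPD-L1, against 9.626, 10.95, 9.058, 9.168 and 8.832% in Control. It was 5.339, 14.27, 6.73, 9.134 and 8.679% in αPD-L1 and 8.397, 8.49, 8.207, 5.512 and 9.476% in RT. Every range overlapped that of Control, although 4 of 5 mice of RT + αPD-L1, 3 of αPD-L1 and 4 of RT lay below every Control mouse. The widest spread was that of αPD-L1, where mouse 2 stood far above the other 4 mice.

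The summed level of the 35 members followed the same lines, at 1557 ± 171.7 CPM in RT + αPD-L1, 1771 ± 443.8 in αPD-L1, 1501 ± 285.2 in RT and 1762 ± 109.2 in Control. In sums over all cells, fewer dividing cells and less mRNA per dividing cell cannot be told apart. A few mice set the extremes for most members. αPD-L1 mouse 2 was the highest of its treatment for 34 of the 35 members, RT + αPD-L1 mouse 3 for 29, and RT mouse 4 was the lowest of its treatment for 31. That mouse gave 131 cells, 7 of them with at least 5 members.

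Differences between treatments were tested with edgeR's quasi-likelihood test on UMIs summed per mouse, with Benjamini-Hochberg adjustment over 11979 genes, and called at an adjusted p under 0.05. No member was called in any of the 6 comparisons, by edgeR or by DESeq2. In RT + αPD-L1 versus Control, 0 of 35 members were called while 1140 genes were (9.52%), and 3 members (Cdc20, Knstrn and Kif20a) had an unadjusted p under 0.05, as did 23.7% of all genes. The member log2 differences were mostly below 0, in 32 of 35 members with a median of −0.13, where the median over all genes was −0.003. Of the member UMIs, 82.26% lay in the 12.78% of cells with at least 10 other cell cycle genes. The members are therefore not independent of each other. Here and below, the number of members below 0 is a description and not a count of replicates. The standard errors of the member differences had a median of 0.141. Median UMIs per cell were 6043 ± 448.4 in RT + αPD-L1 and 6805 ± 522.4 in Control, and the part of this depth difference was not tested.

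For αPD-L1 versus Control, 0 members were called beside 56 genes (0.467%), and 0 had an unadjusted p under 0.05 (14.4% of all genes). The median member difference was 0.05, with 11 of 35 below 0. For RT versus Control, 0 members were called beside 11 genes (0.0918%), and 2 members, Nek2 and Cdc20, had an unadjusted p under 0.05 (9.94% of all genes). The median was −0.16, with 31 of 35 below 0. For RT + αPD-L1 versus RT, 0 members were called beside 389 genes (3.25%), 0 had an unadjusted p under 0.05 (15.8% of all genes), and the median was 0.01.

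Against αPD-L1, RT + αPD-L1 had 0 members called beside 294 genes (2.45%). Here 7 members had an unadjusted p under 0.05 (Aspm, Nek2, Knstrn, Bub1, Cdc20, Cdca8 and Cks2), beside 13.0% of all genes, and the median was −0.18 with 32 of 35 below 0. The excess of RT + αPD-L1 over the sum of the single treatments was called for 0 members and 112 genes (0.935%). None of the 35 had an unadjusted p under 0.05 for the excess (11.7% of all genes), and the median was −0.04 with a larger standard error, 0.199 at the median. The comparisons with Control share the Control mice, and those with RT + αPD-L1 share its mice.

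**Figure D3:**
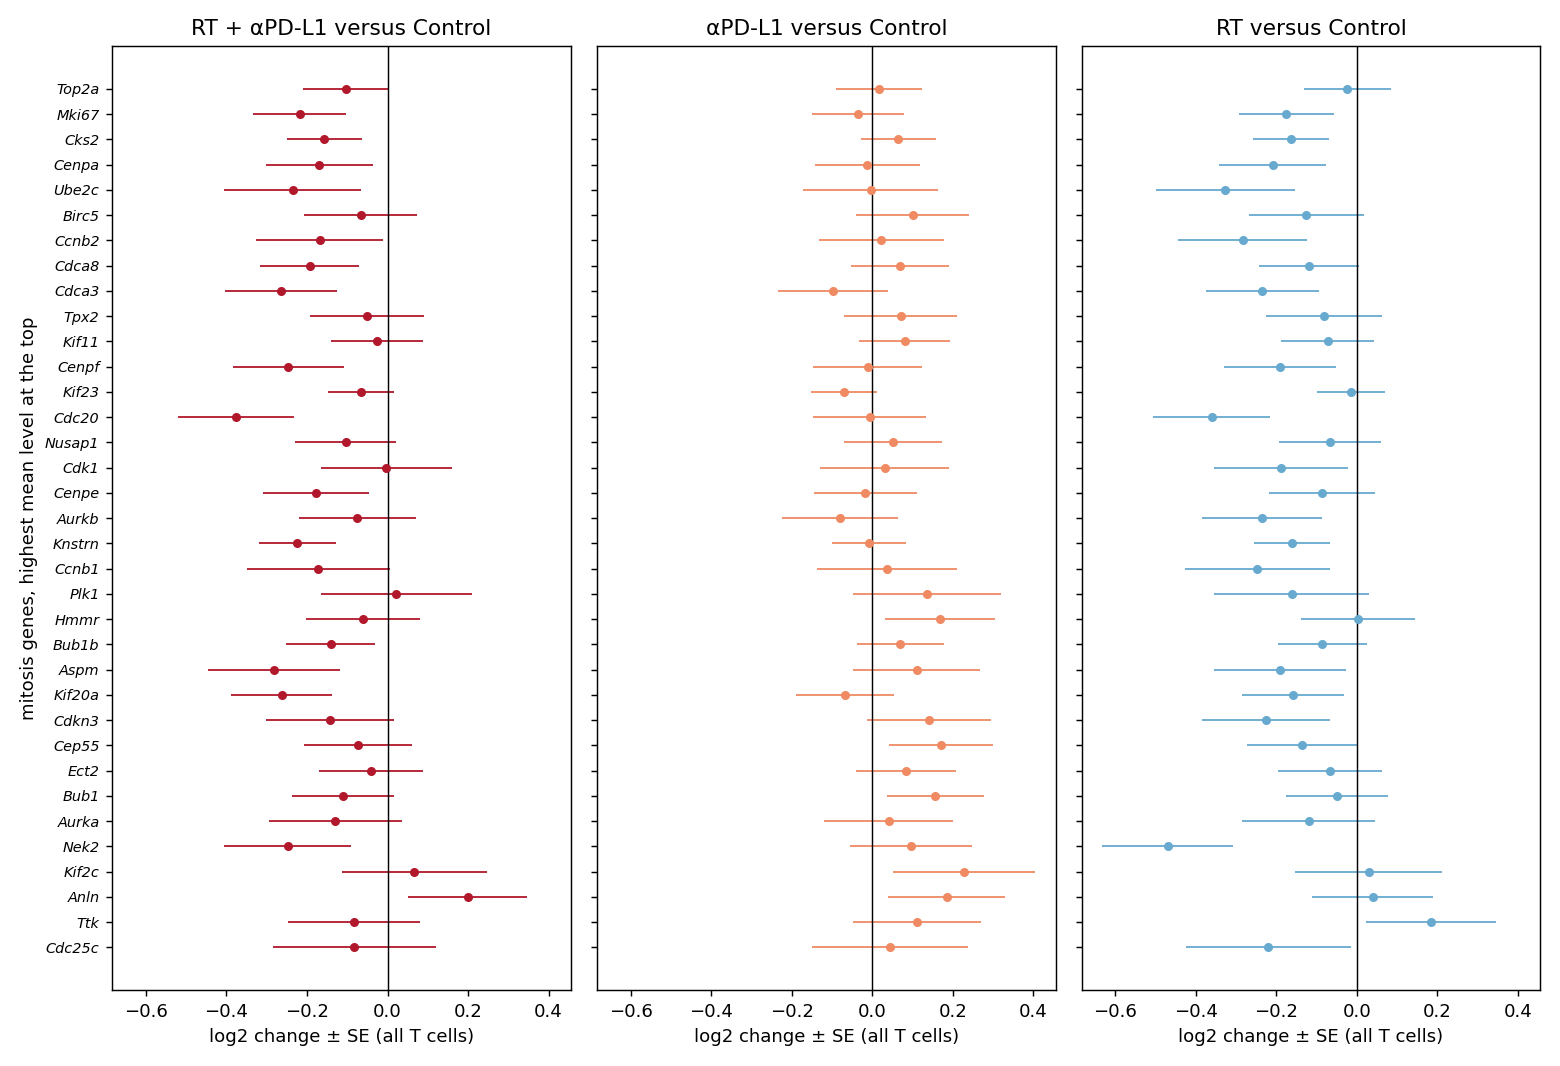
Fitted log2 differences of the 35 mitosis genes (rows, highest mean level at the top) in all T cells for RT + αPD-L1, αPD-L1 and RT versus Control, points as estimates and lines as ± standard error. Most points lie left of 0 for RT + αPD-L1 (32 of 35) and RT (31 of 35), and right of 0 for αPD-L1 (24 of 35).

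The 8 members below are the 4 with the highest levels, the 2 with the lowest log2 differences and the 2 with the highest in RT + αPD-L1 versus Control, each given in mice 1 to 5. Cdc20, which turns on the APC/C at anaphase, had 40.6, 31.99, 46.2, 33.0 and 32.3 CPM in RT + αPD-L1, against 48.1, 51.5, 52.9, 50.1 and 41.6 CPM in Control. It had 35.7, 64.2, 38.5, 48.7 and 51.9 CPM in αPD-L1 and 32.7, 44.0, 39.8, 17.6 and 39.2 CPM in RT. Of the RT + αPD-L1 mice, 4 lay below every Control mouse and mouse 3 lay among them. The log2 difference was −0.38 ± 0.144 (SE) in RT + αPD-L1 versus Control (adjusted p = 0.1077), and −0.36 ± 0.145 in RT versus Control (adjusted p = 0.3916). In αPD-L1 versus Control it was −0.01 ± 0.14.

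Without RT + αPD-L1 mouse 3, Cdc20 was called in RT + αPD-L1 versus Control (log2 −0.52, adjusted p = 0.0367 by edgeR), beside 4.88% of all genes. With the mice assigned by HTODemux, the program used by the study, it was called as well (log2 −0.53, adjusted p = 0.0173, edgeR), together with Knstrn and 6.5% of all genes. Over all alternatives its difference stayed below 0.

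Aspm, which keeps microtubules at the spindle poles, had 17.7, 17.3, 23.3, 18.8 and 15.2 CPM in RT + αPD-L1, against 22.9, 22.7, 26.6, 25.0 and 21.5 CPM in Control. It had 19.02, 32.1, 18.9, 23.2 and 32.7 CPM in αPD-L1 and 19.2, 20.4, 20.2, 4.40 and 25.0 CPM in RT. Again only RT + αPD-L1 mouse 3 reached the Control range. The log2 difference was −0.28 ± 0.163 in RT + αPD-L1 versus Control, and −0.39 ± 0.162 in RT + αPD-L1 versus αPD-L1, where αPD-L1 mice 2 and 5 were the highest of all 20.

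Anln, the scaffold of the contractile ring, had 8.115, 8.29, 9.15, 8.96 and 6.93 CPM in RT + αPD-L1, against 8.05, 8.14, 6.46, 7.13 and 7.00 CPM in Control. It had 5.69, 11.5, 6.50, 7.89 and 9.57 CPM in αPD-L1 and 6.93, 7.99, 6.84, 4.40 and 9.09 CPM in RT. The ranges overlapped, with 3 RT + αPD-L1 mice above every Control mouse. The log2 difference of 0.20 ± 0.148 was the highest of the 35 in RT + αPD-L1 versus Control.

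Kif2c, which strips tubulin from microtubule ends, had 7.54, 8.43, 12.6, 9.23 and 7.82 CPM in RT + αPD-L1, against 9.56, 9.36, 10.8, 9.31 and 8.14 CPM in Control. It had 4.98, 15.2, 10.4, 10.3 and 10.9 CPM in αPD-L1 and 7.96, 9.88, 10.6, 5.28 and 9.92 CPM in RT. Its log2 difference of 0.07 ± 0.181 rested on mouse 3 of RT + αPD-L1 and was −0.14 without it.

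Top2a had 134.2, 130.7, 153.6, 148.9 and 143.5 CPM in RT + αPD-L1, against 145.8, 168.0, 153.2, 157.7 and 149.1 CPM in Control. It had 114.3, 212.4, 120.7, 163.2 and 167.5 CPM in αPD-L1 and 153.0, 159.9, 149.3, 124.1 and 160.3 CPM in RT. The ranges overlapped and the log2 differences were −0.10 ± 0.107, 0.02 ± 0.107 and −0.02 ± 0.108 in RT + αPD-L1, αPD-L1 and RT versus Control.

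Mki67 had 110.4, 113.3, 146.2, 138.6 and 116.8 CPM in RT + αPD-L1, against 141.8, 158.6, 148.3, 155.2 and 137.6 CPM in Control. It had 112.9, 198.1, 120.2, 145.0 and 141.0 CPM in αPD-L1 and 119.3, 138.7, 135.6, 92.4 and 148.9 CPM in RT. In RT + αPD-L1, 3 mice lay below every Control mouse, with a log2 difference of −0.22 ± 0.116 (adjusted p = 0.2617, edgeR).

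Cks2 had 116.8, 110.5, 140.9, 126.4 and 118.7 CPM in RT + αPD-L1, against 140.5, 153.2, 141.7, 129.4 and 127.6 CPM in Control. It had 114.9, 183.2, 121.4, 143.0 and 159.9 CPM in αPD-L1 and 114.0, 129.2, 129.9, 100.4 and 131.6 CPM in RT. Here 4 RT + αPD-L1 mice lay below every Control mouse, with mouse 3 again inside the Control range and a log2 difference of −0.16 ± 0.093.

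Cenpa had 129.8, 107.3, 149.5, 105.9 and 109.7 CPM in RT + αPD-L1, against 140.4, 144.1, 144.2, 129.4 and 126.9 CPM in Control. It had 111.3, 185.7, 109.6, 138.4 and 129.5 CPM in αPD-L1 and 100.2, 128.7, 135.2, 72.2 and 130.1 CPM in RT. Mouse 3 of RT + αPD-L1 was above every Control mouse and 3 others were below every Control mouse, with a log2 difference of −0.17 ± 0.132.

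**Figure D4:**
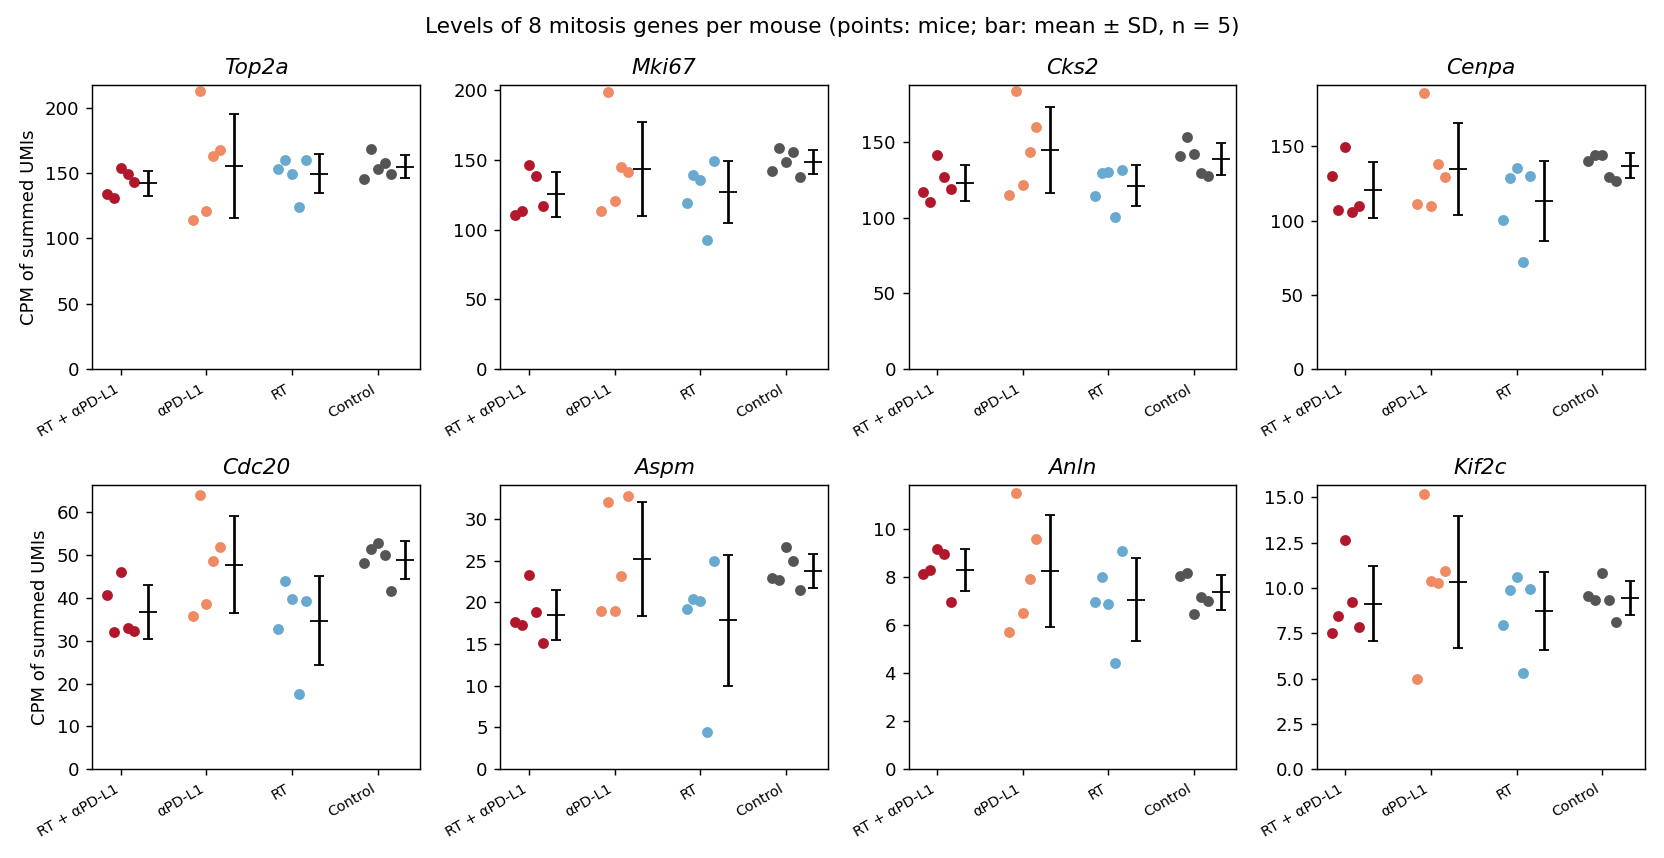
CPM of the UMIs summed per mouse for 8 mitosis genes in RT + αPD-L1, αPD-L1, RT and Control, with points for mice and bars for mean ± SD (n = 5). αPD-L1 mouse 2 is the highest point of its treatment in all panels but that of Aspm, and RT mouse 4 is the lowest of RT in every panel.

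Few members separated the mice of a treatment from those of Control altogether, and the 3 that did were picked out after their values were seen. Every mouse was lower than every Control mouse for 1 of 35 members in RT + αPD-L1 (2.85% of the 11979 genes), for none in αPD-L1 (2.2% of genes) and for 2 in RT (1.83% of genes). In RT, Nek2, a kinase of centrosome separation, had 10.0, 9.66, 9.49, 4.40 and 9.56 CPM, against 13.1, 13.99, 14.1, 12.7 and 11.4 CPM in Control, and Aurkb had 27.4 to 31.4 CPM, against 31.6 to 40.8 CPM in Control. In RT + αPD-L1, Kif20a, a motor of the central spindle, had 14.99 to 18.9 CPM, against 19.4 to 23.6 CPM in Control. The log2 difference of Nek2 in RT versus Control was −0.47 ± 0.162 (adjusted p = 0.305, edgeR). Fitted on the RT and Control mice alone it was called (adjusted p = 0.0395, edgeR), as were 0.433% of all genes. That of Kif20a in RT + αPD-L1 was −0.26 ± 0.126 (adjusted p = 0.2078), and it was called when αPD-L1 mouse 2 was left out (adjusted p = 0.0381, edgeR), beside 9.9% of all genes.

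Those mice also set the size of the member medians. Without αPD-L1 mouse 2, the median in αPD-L1 versus Control was −0.12 with 33 of 35 below 0, that in RT + αPD-L1 versus αPD-L1 was −0.003, and that of the excess was 0.12 with 4 below 0. Without RT + αPD-L1 mouse 3, the median in RT + αPD-L1 versus Control was −0.23, with 34 of 35 below 0. Without RT mouse 4, the median in RT versus Control was −0.12.

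Members were next summed over cycling cells only, taken as cells with at least 5 of the 101 other cell cycle genes. These were 28.1 ± 2.13% of cells in RT + αPD-L1, 30.9 ± 4.11% in αPD-L1, 28.5 ± 2.30% in RT and 33.2 ± 1.92% in Control. Every mouse of RT + αPD-L1 (25.39 to 31.33%) and of RT (25.98 to 31.45%) lay below every Control mouse (31.57 to 36.32%), while αPD-L1 (25.79 to 36.68%) overlapped Control. At a cut of 10 genes all 3 treatments overlapped Control, although 4 mice of RT + αPD-L1, 3 of αPD-L1 and 4 of RT lay below every Control mouse. The cut of 5 takes in many cells with few members. Of its 11029 cells, 6474 had fewer than 10 of the other cell cycle genes and 32.39% held no member. Sums at this cut therefore do not give levels per dividing cell. The cut of 10 is given beside it, chosen after seeing the data. At the cut of 5, over 10731 genes, 0 members were called in RT + αPD-L1 versus Control beside 350 genes (3.26%), and 1 member, Anln, had an unadjusted p under 0.05 (16.5% of all genes). For αPD-L1 versus Control, 0 members and 9 genes (0.0839%) were called, and 2 members, Cep55 and Anln, had an unadjusted p under 0.05 (9.71% of all genes). For RT versus Control, 0 members and 2 genes (0.0186%) were called, and 3 members, Ttk, Nek2 and Top2a, had an unadjusted p under 0.05 (6.6% of all genes). DESeq2 called no member either.

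Within cycling cells the member medians were near 0. They were 0.04 in RT + αPD-L1, 0.07 in αPD-L1 and 0.01 in RT versus Control, with 16, 4 and 15 of 35 members below 0 and median standard errors of 0.114, 0.112 and 0.115. Anln had the largest difference, 0.38 ± 0.117 in RT + αPD-L1 versus Control (adjusted p = 0.07544, edgeR). Its values were 0.25 ± 0.115 in αPD-L1 and 0.22 ± 0.118 in RT. It was called with the hashtag number as a block (adjusted p = 0.0441, edgeR; 3.34% of all genes called) and without RT + αPD-L1 mouse 5 (4.05% of all genes), and not in the other fits with single mice left out. Cdc20 had −0.24 ± 0.123 in RT + αPD-L1 and −0.22 ± 0.124 in RT, and 0.04 ± 0.12 in αPD-L1. Mki67 had −0.06 ± 0.084, 0.01 ± 0.083 and 0.01 ± 0.085 in RT + αPD-L1, αPD-L1 and RT.

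At the cut of 10 genes, with RT mouse 4 left out for too few cells, 0 members were called over 10033 genes. There were 217 genes called in RT + αPD-L1 versus Control (2.16%), 8 in αPD-L1 versus Control (0.0797%) and 0 in RT versus Control (0.0%). Without the upper bounds on cells, Anln was called at this cut, beside 2.33% of all genes. With them it again had the smallest adjusted p of the members in RT + αPD-L1 versus Control (0.38 ± 0.102, adjusted p = 0.0528), and Knstrn had −0.22 ± 0.068 (adjusted p = 0.1072, edgeR). The medians were −0.01, 0.03 and 0.05.

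The other cell cycle genes give the setting of these values, and the counts are those of RT + αPD-L1 versus Control in all T cells by edgeR, where 9.52% of genes were called. No gene of mitotic entry (of 12), of the spindle (of 16) or of cytokinesis (of 9) was called. Pbk, a mitotic kinase, had a log2 difference of 0.36 ± 0.167, Psrc1 −0.41 ± 0.145 and Sapcd2 −0.38 ± 0.133. Of 23 kinetochore, checkpoint and APC/C genes, 1 rose, Pttg1 (securin, the guardian of separase) by 0.40 ± 0.109. Of 10 condensation and cohesion genes, 1 fell, the condensin subunit Smc4 (−0.14 ± 0.044), and of 31 S phase genes 3 fell, among them Ung (−0.37 ± 0.091) and Mcm7 (−0.25 ± 0.064), a subunit of the replicative helicase.

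Of the 29 replication-dependent histones tested, 8 fell and none rose in RT + αPD-L1, led by Hist1h4d (−0.42 ± 0.065) and Hist1h1e (−0.45 ± 0.09), with a list median of −0.30. In αPD-L1 versus Control and in RT versus Control 3 of 29 fell, the same 3 genes (Hist1h4d, Hist1h4h and Hist1h4c), with medians of −0.25 and −0.29. The Control mice are common to these comparisons. Of 13 tested G1 cyclin and E2F genes, 2 rose and 1 fell, with cyclin D3 (Ccnd3) at 0.38 ± 0.056 and its kinase Cdk4 at −0.19 ± 0.051. Of 14 inhibitors, 2 rose, Cdkn1a (p21) by 1.52 ± 0.433 and Cdkn1b (p27) by 0.15 ± 0.047.

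All 14 interferon-stimulated genes tested rose, among them Oas2 (3.18 ± 0.486) and Oasl2 (2.88 ± 0.475), and the list summed to 1276 ± 921 CPM in RT + αPD-L1 cells with at least 5 members, against 446.5 ± 114.6 CPM in such Control cells. In RT + αPD-L1 cells with fewer members the sum was 2431 ± 1566 CPM, against 774.6 ± 221 CPM in Control. The part of this in the member values was not tested. In the cycling cells of RT + αPD-L1 versus Control, where 3.26% of genes were called, Pbk (0.54 ± 0.128), Pttg1 (0.47 ± 0.126) and Depdc1a (0.39 ± 0.087), all genes of mitosis outside the 35, rose. At the cut of 10 genes, Pbk and Depdc1a were called and Pttg1 was not (adjusted p = 0.2923, edgeR).

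The upper bounds on genes (5000) and UMIs (40000) per cell, which the study set against doublets, removed many barcodes rich in mitosis genes. Of the 1483 barcodes with 1 hashtag over the bounds, those with at least 5 members were 75.13% in RT + αPD-L1, 76.83% in αPD-L1, 64.78% in RT and 68.25% in Control, against 9.268%, 10.31%, 8.712% and 9.824% of the cells kept. They held 23.79% of all such barcodes and 35.94% of the member UMIs. Among hashed barcodes, 29.28% of those over the bounds carried several hashtags, against 8.538% of those within. Barcodes with several hashtags within the bounds had at least 5 members in 12.05% (median 11716 UMIs). Without the bounds, 0 members were called in each comparison of all T cells, and the median in RT + αPD-L1 versus Control was −0.19.

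The step that assigns cells to mice also bears on the members. Of the compared cells, those that HTODemux did not keep had at least 5 members in 14.86% in RT + αPD-L1, 15.18% in αPD-L1, 10.88% in RT and 12.45% in Control, against 7.078%, 9.784%, 8.218% and 9.301% of the cells it kept. The cells not kept were also deeper, at 8368 UMIs against 6024 UMIs in RT + αPD-L1. In RT + αPD-L1 mouse 3, HTODemux left out 1947 of 4328 cells, 15.25% of them with at least 5 members against 7.308% of those kept. It also left out 683 of 786 cells of RT mouse 1 and 992 of 1953 cells of Control mouse 1. At least 5 members were found in 8.931% and 10.58% of these, against 4.854% and 8.637% of those kept. The hashtags of these 2 mice were called here from 70 and 44 counts. With HTODemux the members' median in RT + αPD-L1 versus Control was −0.29, with 34 of 35 below 0, 15 with an unadjusted p under 0.05 (21.7% of all genes) and 2 called (6.5% of all genes). In RT + αPD-L1 versus αPD-L1 the median was −0.39, with 25 of 35 at an unadjusted p under 0.05 (14.2% of all genes) and Cdc20 called (2.31% of all genes).

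**Figure D5:**
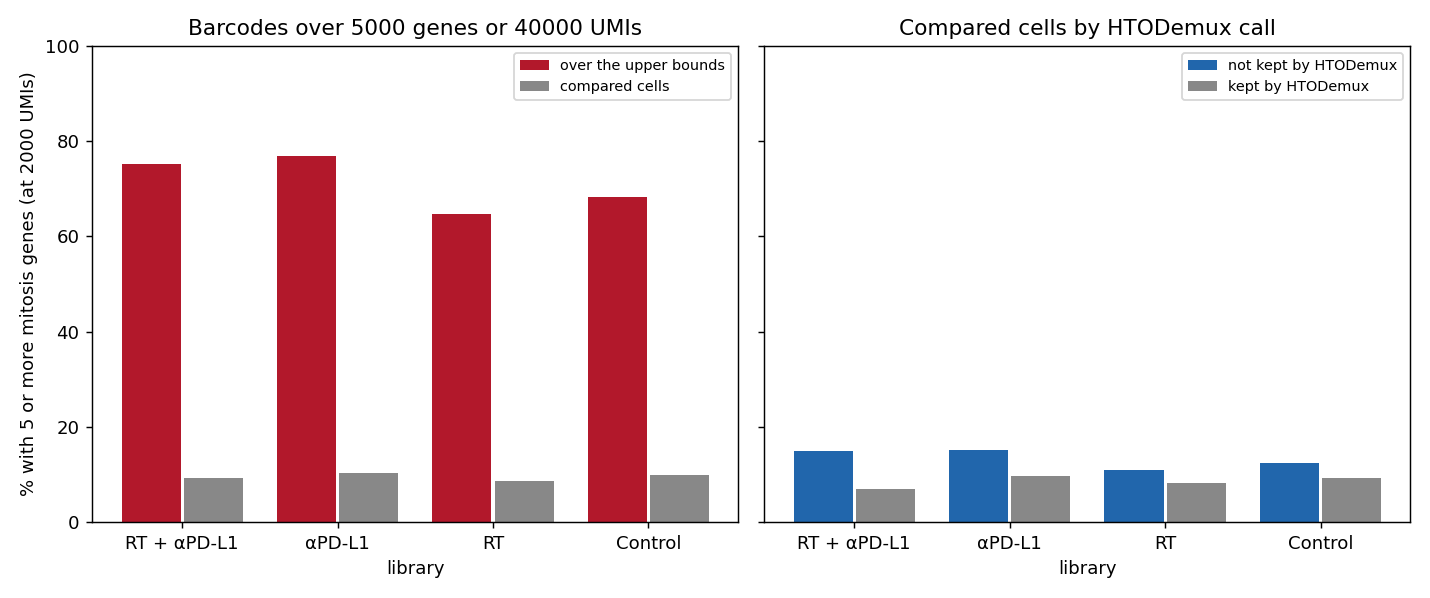
Percent of barcodes with 5 or more mitosis genes after thinning to 2000 UMIs, by library: left, barcodes with 1 hashtag over 5000 genes or 40000 UMIs (red) beside the compared cells (grey); right, compared cells that HTODemux did not keep (blue) beside those it kept (grey). Bars are shares of pooled cells, with 75.13% against 9.268% on the left and 14.86% against 7.078% on the right for RT + αPD-L1.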

How the data were processed

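Single-cell RNA of 4 libraries, each of 5 hashed mice, was analysed from the deposited UMI count matrices. The authors made these counts with Cell Ranger (version 6.1.2 in the file headers, mm10), and gene and hashtag counts are raw. Barcodes with 500 to 5000 genes, at most 40000 UMIs and at most 10% mitochondrial UMIs were kept, as the study describes, and cells were assigned to mice at the emptiest bin between background and positive hashtag counts, with HTODemux (Seurat 5.3.0), which the study names, as an alternative. Barcodes with several hashtags were removed, and no other doublet caller was run. Counts were summed per mouse and tested with edgeR 4.0.16 (R 4.3.3; TMM, filterByExpr, quasi-likelihood F test, 1 fit over all 20 mice, Benjamini-Hochberg), and DESeq2 1.42.0 was an alternative. Clusters were made with scanpy 1.11.5 and leidenalg 0.10.2 (2000 variable genes, 20 components, resolution 0.6). Scripts were tested on simulated data. The members and gene lists were chosen with earlier results of these data known. Members given by mouse are the 4 with the highest level, any called, and the 2 lowest and 2 highest log2 differences in RT + αPD-L1 versus Control; of each other list, the 2 genes with the smallest adjusted p are named, and further genes were named after their values were seen. A ratio of CPM has 5 CPM added to both terms where it is averaged over mice. The standard error of a log2 difference was taken as its size divided by the square root of the F statistic. It can therefore differ from what the p of the same test implies. Intervals and errors cover the spread between mice of 1 library per treatment.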

Additional observations from a re-analysis of the deposited data

Results flagged for a closer look

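Of 48 values compared within a treatment, 3 lay far from the other 4 mice by Dixon's criterion, which chance alone meets in about 1 of 20 groups. Aspm stood at 4.402 CPM in RT mouse 4, which gave 131 cells, and the next mouse of RT had 19.16 CPM. The summed level of the members stood at 1850 CPM in RT + αPD-L1 mouse 3, which gave 4617 cells, with the next mouse at 1548 CPM. The share of cells with at least 10 other cell cycle genes stood at 12.84% in RT mouse 5, with the next mouse at 11.45%. Over all 140 pairs of a member and a treatment, 9 had a mouse set apart in this way, 5 of them with RT mouse 4 lowest.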

How the results depend on the processing

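The fits of each comparison were repeated with other tools, filters, cells and mice. In all T cells no alternative called a member in αPD-L1 versus Control, RT + αPD-L1 versus RT or the excess. With only the mice of the treatments compared, 1 member was called in RT versus Control (Nek2). With HTODemux 2 were called in RT + αPD-L1 versus Control and 1 in RT + αPD-L1 versus αPD-L1. With single mice left out, 0 to 1 were called in RT + αPD-L1 versus Control in all T cells (Kif20a without αPD-L1 mouse 2, Cdc20 without RT + αPD-L1 mouse 3) and 0 to 1 in cycling cells (Anln without RT + αPD-L1 mouse 5). In cycling cells, 1 member (Anln) was called in RT + αPD-L1 versus Control with the hashtag number as a replicate block, and 1 without upper bounds from 10 genes. The cause was not tested. Kif2c in RT + αPD-L1 versus Control changed sign to a log2 difference of −0.00238 with the block, −0.14 without RT + αPD-L1 mouse 3 and −0.17 with HTODemux, while single mice left out gave −0.14 to 0.13.

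Over 30 same-numbered pairs of mice the correlation of their deviations ran from −0.115 to 0.201, with a median of 0.038, and 7 were over 0.1. Of the 20 mice, 9 lay closest to their own hashtag number. Whether the hashtag number paired the mice more than chance would was not tested. Under the block, the genes called in RT + αPD-L1 versus Control numbered 984 in all T cells and 358 in cycling cells, against 1140 and 350 without it.

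The members' median log2 difference ran over the alternatives from −0.29 to −0.06 in RT + αPD-L1 versus Control, −0.12 to 0.14 in αPD-L1 versus Control, −0.21 to −0.11 in RT versus Control, −0.12 to 0.11 in RT + αPD-L1 versus RT, −0.39 to −0.003 in RT + αPD-L1 versus αPD-L1 and −0.19 to 0.12 in the excess. The genes called in RT + αPD-L1 versus Control ran from 587 to 1302 in all T cells and from 140 to 648 in cycling cells. In the comparisons of all T cells they ran from 13 to 160 in αPD-L1 versus Control, 3 to 51 in RT versus Control, 0 to 547 in RT + αPD-L1 versus RT, 2 to 413 in RT + αPD-L1 versus αPD-L1 and 19 to 253 in the excess, and in cycling cells from 5 to 37 in αPD-L1 and 0 to 12 in RT versus Control.

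The share of cycling cells follows its cut by construction. From 3 genes it was 61.54%, 65.26%, 61.23% and 66.41% in RT + αPD-L1, αPD-L1, RT and Control, from 8 genes 13.65%, 14.57%, 13.78% and 15.95%, and thinned to 1000 UMIs 13.27%, 14.32%, 13.85% and 15.90%. From 10 genes, added after seeing the data, it was 11.15%, 12.19%, 11.45% and 13.24%, and 13.20%, 14.60%, 13.71% and 16.28% without upper bounds. From 3 genes, every mouse of RT + αPD-L1 (58.92 to 63.6%) and of RT (56.69 to 63.38%) lay below every Control mouse (63.67 to 68.34%). The mice of αPD-L1 (61.53 to 69.15%) overlapped those of Control. From 8 genes and at 1000 UMIs all treatments overlapped Control. Control stood at 35.60% from 5 genes without upper bounds, where the mice of RT + αPD-L1 and of RT overlapped those of Control. Single mice left out gave 27.35% to 28.83% in RT + αPD-L1, 29.51% to 32.23% in αPD-L1, 27.77% to 29.14% in RT and 32.40% to 33.59% in Control.

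With 1 library per treatment, treatment and library cannot be told apart. RT mouse 4 gave few cells. At standard errors near 0.14 on the log2 scale, member differences of up to −0.47 (Nek2 in RT versus Control) were not called.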
